A study of Mus musculus with 8 samples.

Results

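The forkhead genes on this array were taken as all probes whose gene name in the scanner files is Fox followed by 1 letter from a to s and a number, with Foxf1a kept and Foxred left out. They were 575 probes of 38 genes, out of 88737 probes on the array. After filters on input signal and outlier marks 526 of them remained. Probes whose starts lie up to 500 bp apart were joined into regions, and 508 of the 526 fell in the 62 regions that have at least 3 probes and carry a forkhead name on at least 50% of them. The 62 regions belong to 35 genes and stand among 13183 regions of the whole array. Of the 35 genes 19 had 1 region, 7 had 2, 8 had 3 and Foxp4 had 5, and regions of 1 gene are numbered by position, as in Foxp4 1.

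DNA methylation was measured by mDIP, in which sonicated, denatured DNA is bound by an antibody against 5-methylcytidine and the bound DNA is compared with the input DNA of the same sample on an Agilent mouse CpG island array. The 8 arrays are 8 groups of 1 array each. ES cells (mouse embryonic stem cells) gave 4 arrays: aid-/-, mbd4-/-, Gadd45a knock down and wild type. Liver and spleen gave 1 aid-/- and 1 mbd4-/- array each, from C57BL6/J mice aged 6 months, so that no tissue of a wild-type mouse was analysed here. The strain of the ES cells, the sex of the mice, and how the Gadd45a knock down was made are not given in the sources used here. AID deaminates cytidine and is best known from B cells, Mbd4 removes mispaired thymine and binds methylated CpG, and Gadd45a is a DNA damage response gene. All 3 have been proposed to take part in the removal of DNA methylation, and by its title the series asked about a pathway of this kind in ES cells.

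Forkhead proteins are transcription factors that share a winged-helix DNA-binding domain. Members of the A class open closed chromatin in the endoderm and liver, the C, D, F and L classes, among others, pattern the embryo, and the O class answers to insulin, since AKT phosphorylates these proteins and keeps them out of the nucleus. Many of these genes are developmental regulators whose CpG islands usually stay free of methylation, and the promoters of some germ-line genes are known to be methylated in somatic cells.

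Each region was given the mean over its probes of the log2 ratio of bound to input signal, less the array's own median over probes, so that 0 is the typical probe and a higher value means that more of the DNA was bound by the antibody. It is not a percentage of methylation. Arrays differed in range. Their plateau, by which the 98th percentile over autosomal regions is meant, lay between 2.23 and 4.34. A region at 50% of the plateau of its array or above is called high. The share of probes with a bound signal well above background ran from 70.6% to 96.2%, and arrays correlated over regions at r = 0.520 to 0.922. The 4 probes named for Mbd4 and 7 for Gadd45a lie in islands whose relation to the changed part of these genes is not known, so they check nothing. The Mbd4 probes averaged −0.54 in ES mbd4-/- cells against 0.46 in wild-type ES cells, and the Gadd45a probes −0.54 in the Gadd45a knock down against −0.64 in wild-type ES cells. Of the marker genes for ES cells, liver, spleen and blood, and fibroblasts, regions of 4, 1, 5 and 5 genes were measured, and none of these regions passed the test of ES cells against liver and spleen. The array measures DNA, so the identity of the samples could not be checked on expression.

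The probes of 4 regions are printed because the results turn on them: Foxr1 and Foxs1 1, where ES lines differed from each other, Foxp4 2, where all ES values lay below all liver and spleen values, and Foxa3, where all lay above. Letters are those of the array design, 5′ to 3′, and capitals mark CpG, the site the antibody reads when it is methylated. Foxr1 lies at chr9:44248712-44249146 (build mm9, as are all positions of array regions here).
Foxr1 probe 1: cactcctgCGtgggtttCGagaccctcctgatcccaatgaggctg
Foxr1 probe 2: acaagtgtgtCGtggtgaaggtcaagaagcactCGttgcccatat
Foxr1 probe 3: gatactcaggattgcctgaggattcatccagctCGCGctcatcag
Foxs1 1 lies at chr2:152758478-152758809.
Foxs1 1 probe 1: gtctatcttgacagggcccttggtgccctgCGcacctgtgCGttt
Foxs1 1 probe 2: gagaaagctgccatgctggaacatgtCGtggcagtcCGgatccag
Foxs1 1 probe 3: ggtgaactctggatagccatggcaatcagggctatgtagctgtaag
Foxp4 2 lies at chr17:48041174-48041563.
Foxp4 2 probe 1: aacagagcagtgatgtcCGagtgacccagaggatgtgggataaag
Foxp4 2 probe 2: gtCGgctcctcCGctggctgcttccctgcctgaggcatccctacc
Foxp4 2 probe 3: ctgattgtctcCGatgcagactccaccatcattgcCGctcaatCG
Foxp4 2 probe 4: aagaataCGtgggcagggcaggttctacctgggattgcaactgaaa
Foxa3 lies at chr7:19597465-19597927.
Foxa3 probe 1: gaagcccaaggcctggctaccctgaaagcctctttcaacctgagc
Foxa3 probe 2: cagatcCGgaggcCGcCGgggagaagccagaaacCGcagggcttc
Foxa3 probe 3: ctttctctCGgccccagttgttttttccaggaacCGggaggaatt
Foxa3 probe 4: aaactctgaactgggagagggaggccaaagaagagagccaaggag

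The second Foxa3 probe held 4 CpG, the most among the printed probes. The third Foxs1 1 probe and the first and last Foxa3 probes held none. A probe without CpG still reports on its surroundings, since the antibody pulls down sonicated fragments that are longer than a probe, per the labels' protocols.

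Most forkhead islands were low. Of the 62 regions 52, or 83.9%, were high on none of the 8 arrays, beside 83.2% of all 13183 regions. Only Foxp4 1 (1.61% of the forkhead regions) was high on all 8, beside 3.77% of all regions. The other 9 were high on 1 to 7 arrays: Foxs1 1 on 7, Foxr1 and Foxo3 1 on 6, Foxp4 2 on 4, Foxc1 2 on 2, and Foxa3, Foxo4, Foxo6 2 and Foxp4 5 on 1 each. The number of high forkhead regions per array was 4, 4, 4 and 2 in ES aid-/-, mbd4-/-, Gadd45a knock down and wild-type cells, 6 in liver of both genotypes, and 5 (aid-/-) and 6 (mbd4-/-) in spleen. Of all regions 7.91%, 8.39%, 7.96% and 6.26% were high on these ES arrays, 9.18% (aid-/-) and 8.65% (mbd4-/-) in liver, and 9.75% (aid-/-) and 10.6% (mbd4-/-) in spleen, so that more regions were high on each tissue array than on any ES array over the whole array as well. Within 1 log2 of the array median on all 8 arrays were 32 of the 62 regions, or 51.6%, beside 48.4% of all regions.

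**Figure D1:**
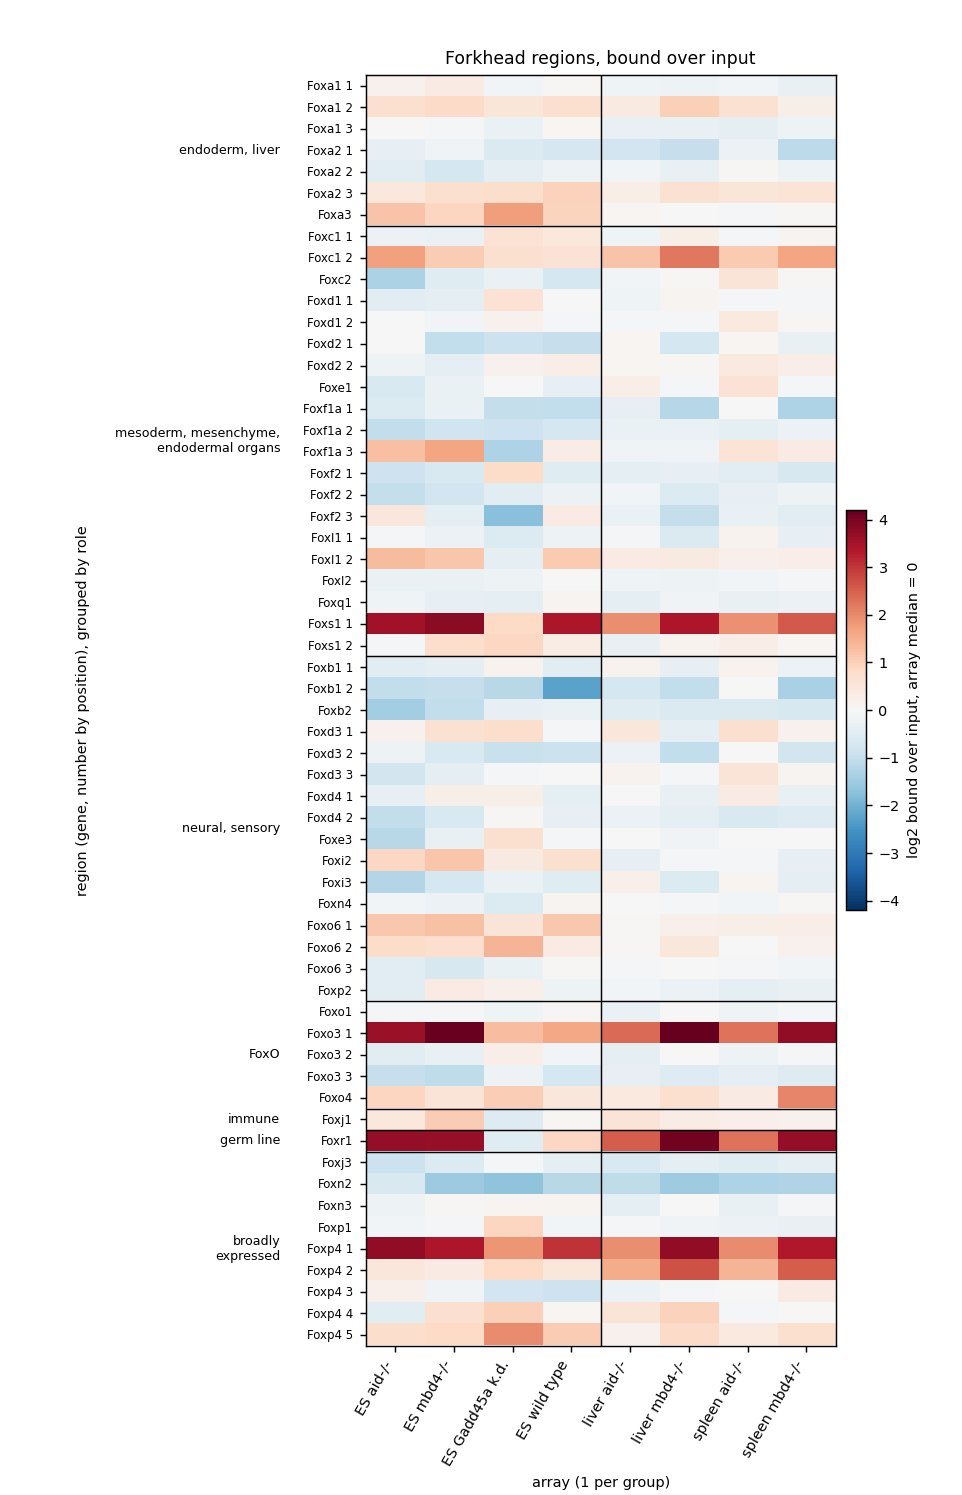
Heat map of log2 bound over input (colour, array median = 0) of the forkhead regions reported here (rows, grouped by role of the gene) on the 8 arrays (columns, ES cells left of the line, liver and spleen right of it). Most rows are pale on all arrays, and the dark red rows are Foxs1 1, Foxo3 1, Foxr1 and Foxp4 1, with Foxp4 2 red only in liver and spleen.

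The 10 regions that were high on at least 1 array had a lower median length and CpG content than the rest. Their median was 4.22 CpG per 100 probe bases (2.94 to 7.78), beside 5.58 (3.24 to 9.17) in the 52 other forkhead regions, and they had a median of 4 probes, beside 8. RefSeq start windows (250 bases before to 50 after a gene's start, build GRCm38.p6) exist in the table used for 24 of the 38 genes, and 17 regions of 17 genes hold a probe inside the window of their own gene by exact match of letters. Of these 17 only Foxr1 was high on any array (5.88%), against 9 of the 45 other forkhead regions (20.0%). Over the whole array 7.94% of regions with a probe in a start window and 26.6% of those without one were high on at least 1 array, so the forkhead shares have the same order as those of the array. These shares describe the regions and were not tested. The 2 splits are not the same measure. The whole-array split counts a probe in the window of any gene, and by that rule 18 forkhead regions hold one. The 45 other forkhead regions include genes without a window in the table.

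The start window of Foxr1 is printed as the exception. It lies at chr9:44440819-44441118 on the minus strand of GRCm38.p6, is given as the gene reads, and holds 16 CpG in 300 bases. Capitals mark the stretch from base 56 to base 100 that the third Foxr1 probe matches on the other strand.
Foxr1 promoter: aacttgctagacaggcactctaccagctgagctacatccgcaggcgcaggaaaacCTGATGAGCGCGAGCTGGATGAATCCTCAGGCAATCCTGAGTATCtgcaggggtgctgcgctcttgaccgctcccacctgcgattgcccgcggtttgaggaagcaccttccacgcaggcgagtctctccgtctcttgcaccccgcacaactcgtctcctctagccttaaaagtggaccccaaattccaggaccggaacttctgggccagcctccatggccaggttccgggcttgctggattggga

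Foxr1, a forkhead gene known mainly from germ cells and the early embryo, had the largest differences between ES lines in the family. Its region was at 3.70 in ES aid-/- and 3.67 in ES mbd4-/- cells, at −0.51 in the Gadd45a knock down and at 0.87 in wild-type ES cells. In liver it was at 2.55 (aid-/-) and 4.06 (mbd4-/-), and in spleen at 2.30 (aid-/-) and 3.69 (mbd4-/-). It thus stood at 85.3% of the plateau in both ES knockouts and at 101% to 114% in the tissues, against 25.8% in wild-type ES cells and below the array median in the knock down. All 3 printed probes showed it: on the wild-type ES array they read 1.21, 0.90 and 0.50, and on the ES aid-/- array 4.23, 4.00 and 2.88.

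Foxo3 1 also had both ES knockouts far above the knock down and wild-type ES cells, with a smaller gap. Foxo3 is a FoxO factor that insulin signalling holds in the cytoplasm. Its region 1 (chr10:41916896-41917662, 9 probes) lies 76781 bp from Foxo3 2, the region at the gene start. It read 3.63 in ES aid-/- cells, 4.16 in ES mbd4-/- cells, 1.29 in the Gadd45a knock down and 1.62 in wild-type ES cells. It was at 2.37 (aid-/-) and 4.19 (mbd4-/-) in liver and 2.27 (aid-/-) and 3.72 (mbd4-/-) in spleen. The knock down and wild-type values were 46.1% and 48.2% of their plateaus, just under the line for high, and all 6 other arrays were at 83.7% or more. Foxo3 2 stayed between −0.45 and 0.27 on all 8 arrays, and Foxo3 3, 506 bp beyond it, between −1.06 and −0.23. Foxo1, which controls gluconeogenesis in liver, lay between −0.26 and 0.06 at its start region.

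Foxo4, the X-linked FoxO gene, was at 2.06 in mbd4-/- spleen, against 0.33 to 1.02 on the 7 other arrays. X-linked regions as a whole had a median of 0.19 in aid-/- spleen and 2.28 in mbd4-/- spleen over 352 regions, against −0.14 and −0.07 over 12831 autosomal regions. The value of Foxo4 in mbd4-/- spleen was thus near the X-linked median of that array, and the part of the X chromosome in it was not tested.

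**Figure D2:**
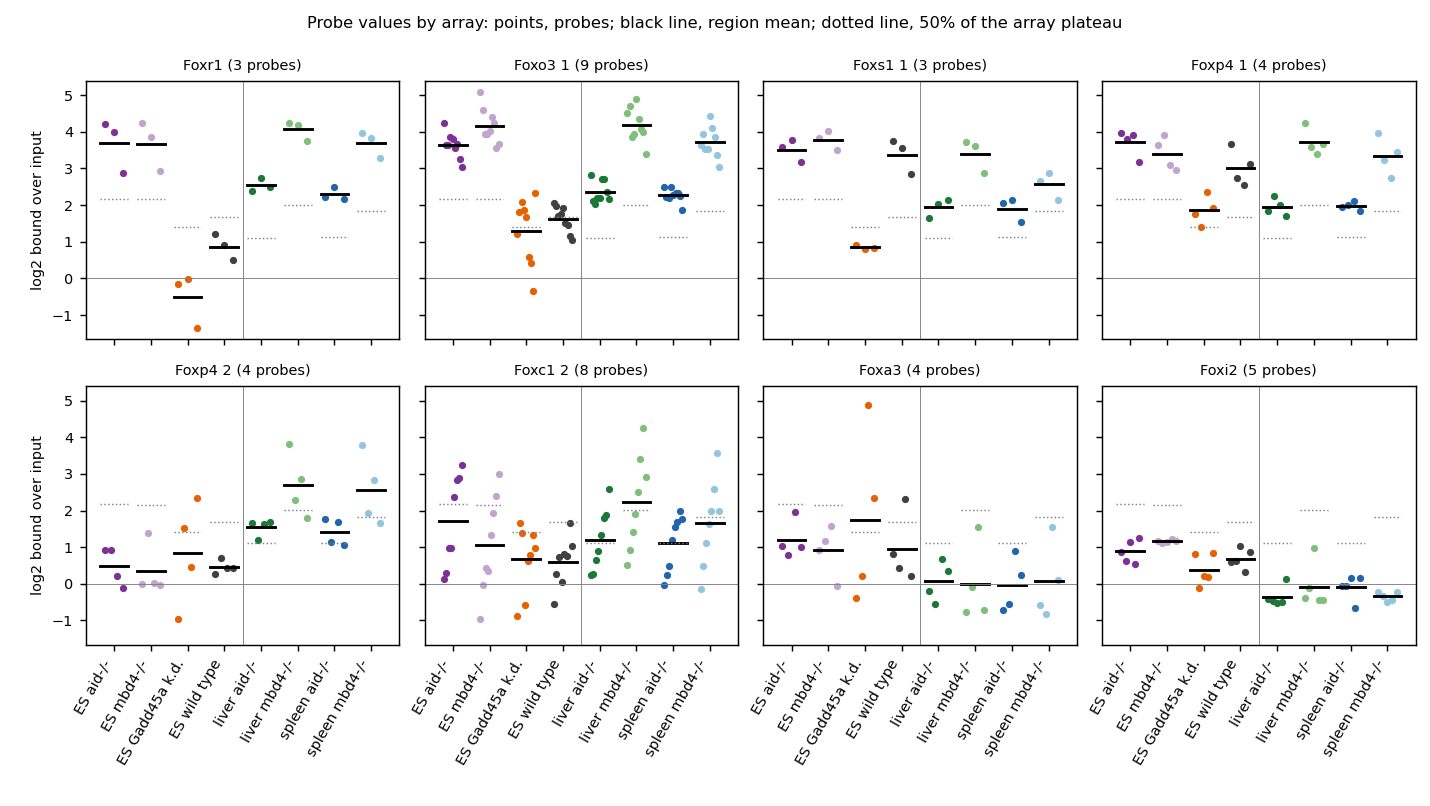
Probe values (points), region mean (black line) and 50% of the plateau of the array (dotted line) of 8 forkhead regions on the 8 arrays, as log2 bound over input, with ES arrays left of the grey line and liver and spleen right of it. Foxr1 is far below the dotted line only in the Gadd45a knock down and wild-type ES cells, Foxs1 1 only in the knock down, and Foxp4 2 on all 4 ES arrays.

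Foxs1, a small forkhead gene known from pericytes and sensory neurons, had the highest value among the regulators of mesoderm and mesenchyme. Foxs1 1 read 3.51 in ES aid-/- cells, 3.79 in ES mbd4-/- cells and 3.38 in wild-type ES cells, but 0.85 in the Gadd45a knock down. In liver it was at 1.94 and 3.39, and in spleen at 1.91 and 2.56, in aid-/- and mbd4-/- mice in that order. The 3 knock down probes read 0.92, 0.79 and 0.83, and none of the 3 was below 2.85 on the wild-type ES array. Foxs1 2, 9883 bp away, lay between −0.32 and 0.87. The newer of the 2 name releases in the files gives Foxs1 2 the name Dusp15, so the gene of that second region is uncertain.

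The other 19 regions of mesoderm, mesenchyme and organ regulators were mostly low, and 11 of the 20 stayed within 1 log2 of the array median on all arrays. Foxl2, which maintains the ovary, was the flattest with a span from −0.29 to −0.01 over 23 probes. Foxq1 ran from −0.39 to 0.12 and Foxd1 1, at the start of a gene of the kidney stroma, from −0.45 to 0.60. Foxc1 2, 2151 bp from the start region of this regulator of eye and vessel mesenchyme, was the exception beside Foxs1 1. It was at 1.71, 1.05, 0.66 and 0.59 in ES aid-/-, mbd4-/-, knock down and wild-type cells, and at 1.20, 2.23, 1.11 and 1.66 in aid-/- liver, mbd4-/- liver, aid-/- spleen and mbd4-/- spleen. Foxc1 1, at the start, stayed between −0.28 and 0.60.

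Among the neural and sensory regulators no region reached 50% of the plateau except Foxo6 2 in the Gadd45a knock down, at 1.43 (50.9%). Foxo6 is a FoxO gene expressed mainly in brain. Foxb1, a regulator of the hindbrain and hypothalamus, was low at its second region, but only 0 or 1 of the 3 bound probes there were above background on each ES array, so that its level in ES cells is a bound. Foxd3, which is needed in neural crest and in ES cells themselves, lay between −1.02 and 0.74 over its 3 regions, with −0.77, −0.41, −0.09 and −0.00 at the start region in ES aid-/-, mbd4-/-, knock down and wild-type cells.

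The 5 regions of Foxp4 differed widely from each other. Foxp4 is a broadly expressed factor that acts in lung and gut epithelium. Foxp4 1 (chr17:48009423-48009776) was high on all arrays, at 3.71, 3.40, 1.85 and 3.02 in ES aid-/-, mbd4-/-, knock down and wild-type cells and at 1.95, 3.72, 1.99 and 3.35 in aid-/- liver, mbd4-/- liver, aid-/- spleen and mbd4-/- spleen. Foxp4 2, 31398 bp further on, was high in the 4 tissue arrays alone. Foxp4 3 and 4 had low means, between −0.86 and 0.99. The 3 probes of Foxp4 3 disagreed in the knock down, where they read −4.62, −2.94 and 5.16 in rising order. Foxp4 5 was at 1.98 in the knock down, 70.6% of its plateau, against 0.18 to 1.08 on the 7 other arrays. Of the other broadly expressed members Foxn2 lay between −1.68 and −0.65, with 2 or 3 of its 4 bound probes above background on each array, while Foxn3 stayed between −0.39 and 0.10 and Foxj3 between −0.89 and −0.06.

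Foxj1, the switch for motile cilia that also restrains T cells, lay between −0.55 in the Gadd45a knock down and 1.06 in ES mbd4-/- cells. The liver and endoderm factors Foxa1 and Foxa2 stayed between −1.11 and 0.99 over 6 regions. No region remained for Foxj2, Foxk2 and Foxm1. The 4 used probes of Foxj2 ran from −3.60 to 0.79, the 4 of Foxk2 from −2.24 to 1.43, and the 2 of Foxm1, a cell cycle factor, from −1.94 to 0.31. The 2 Foxm1 probes lie in a region of 6 probes that carries another gene's name and was between −1.66 and −0.22. Foxa3, Foxn2 and Foxo6 each had 2 more used probes outside the 62 regions.

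The 4 ES arrays were set against the 4 tissue arrays with limma, and since each array has its own genotype or organ, the spread includes these. No forkhead region passed an adjusted p of 0.05 in either direction, beside 29 of 13183 regions (0.22%; 0.0834% higher and 0.137% lower). At an unadjusted p under 0.05, 8 forkhead regions (12.9%) were counted, 4 in each direction, beside 15.2% of all regions (5.91% higher and 9.26% lower). In 4 regions all ES arrays were above all tissue arrays (Foxa1 1, Foxa3, Foxi2 and Foxo6 1), and in 4 all were below, among them Foxc2, Foxf1a 2 and Foxp4 2, together 12.9% beside 11.7% of all regions (4.23% above and 7.43% below). These shares are near the background. With the aid-/- and mbd4-/- arrays alone and genotype as a block, which gives ES cells 2 arrays, 8 forkhead regions passed, 6 higher (Foxa3, Foxf1a 3, Foxi2, Foxl1 2, Foxo6 1 and Foxs1 1) and 2 lower, among them Foxp4 2, beside 11.6% of all regions (5.95% higher and 5.68% lower). As a share of the plateau, Foxs1 1 was at 80.9% (aid-/-) and 87.9% (mbd4-/-) in ES cells. It was at 87.1% and 84.4% in liver and at 85.1% and 70.1% in spleen, in the same order. The plateaus of these ES arrays were 4.34 and 4.31, against 2.23 and 2.24 in aid-/- liver and spleen. The part of this range in the 8 calls was not tested. Under normexp background correction the differences of Foxa3, Foxi2 and Foxo6 1, which are described next, shrank to 0.47, 0.53 and 0.32. The median ES minus tissue difference was −0.02 over forkhead regions and −0.06 over all.

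Foxp4 2 had the largest ES minus tissue difference of the family. It was at 0.49, 0.35, 0.84 and 0.47 in ES aid-/-, mbd4-/-, knock down and wild-type cells, and at 1.54 (aid-/-) and 2.69 (mbd4-/-) in liver and 1.41 (aid-/-) and 2.55 (mbd4-/-) in spleen. All 4 tissue values were above all ES values, and as a share of the plateau they were close together, 63.1% to 69.7%, against 8.0% to 29.9% in ES cells. The means were 0.53 ± 0.21 and 2.05 ± 0.66 (SD, n = 4 each), and the difference of −1.51 (SE 0.33) had a limma adjusted p of 0.102. With genotype as a block it was −1.63 with an adjusted p of 0.0338, and over all alternatives the limma adjusted p ran from 0.000886 to 0.356. The 4 probes did not act alike in the knock down, where they read −0.97, 1.52, 0.46 and 2.35.

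**Figure D3:**
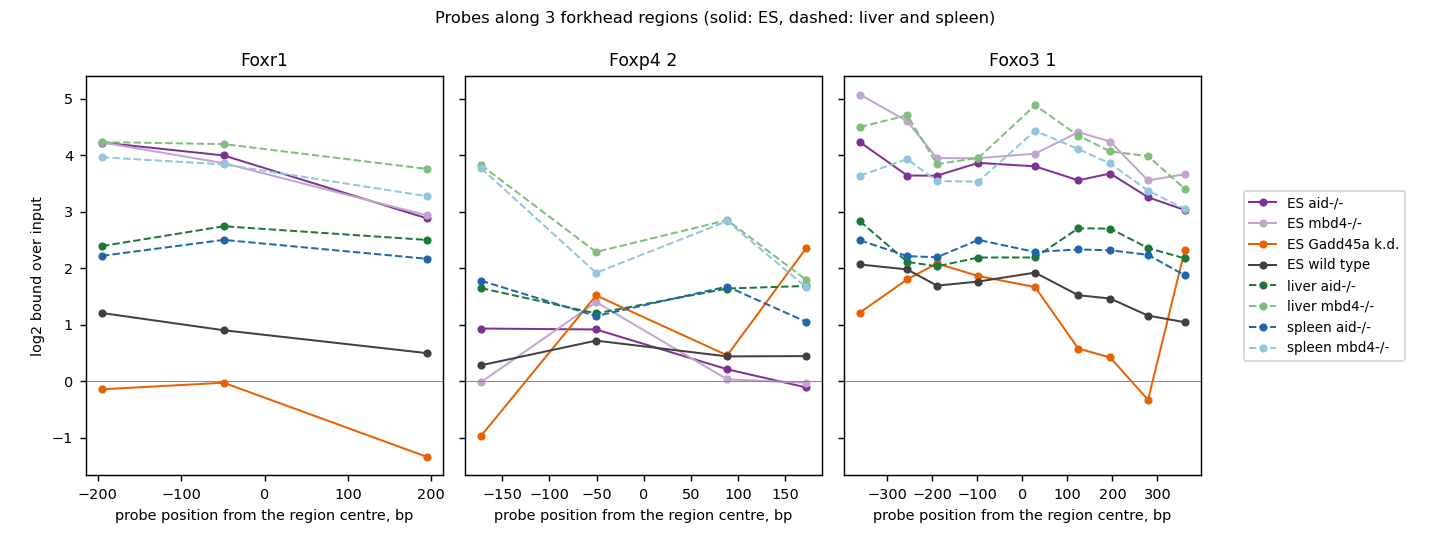
Log2 bound over input of each probe of Foxr1, Foxp4 2 and Foxo3 1 against its distance in bp from the centre of the region, 1 line per array (solid, ES cells; dashed, liver and spleen). At Foxr1 the Gadd45a knock down and wild-type ES lines lie below all others at all 3 probes, at Foxp4 2 the dashed lines lie above the solid ones at probes 1 and 3, and at Foxo3 1 the Gadd45a knock down and wild-type ES lines lie lowest at most probes.

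Foxa3, the third of the liver FoxA genes, had higher values on all ES arrays than on all tissue arrays. It was at 1.20, 0.91, 1.75 and 0.94 in ES aid-/-, mbd4-/-, knock down and wild-type cells, and at 0.08 (aid-/-) and −0.01 (mbd4-/-) in liver and −0.04 (aid-/-) and 0.07 (mbd4-/-) in spleen. The mean was 1.20 ± 0.39 in ES cells and 0.02 ± 0.06 in the tissues (SD, n = 4 each), with a difference of 1.18 (SE 0.23, limma adjusted p 0.0781). With genotype as a block it was 1.03 with an adjusted p of 0.0307, and on scan day 1 alone 1.05. In the knock down 1 of the 4 probes, the third, read 4.87 and the first −0.39.

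Foxi2, a member of a class that acts in the ear and the ectoderm, was at 0.88, 1.16, 0.39 and 0.69 in ES aid-/-, mbd4-/-, knock down and wild-type cells, against −0.35, −0.08, −0.10 and −0.34 in aid-/- liver, mbd4-/- liver, aid-/- spleen and mbd4-/- spleen. The difference was 1.00 (SE 0.22, limma adjusted p 0.106), 1.24 with genotype as a block (adjusted p 0.0249) and 1.01 on scan day 1 alone. Foxo6 1 was at 1.13, 1.24, 0.54 and 1.15 in ES aid-/-, mbd4-/-, knock down and wild-type cells, against 0.05 (aid-/-) and 0.22 (mbd4-/-) in liver and 0.26 (aid-/-) and 0.27 (mbd4-/-) in spleen. Its difference was 0.82 (SE 0.21, limma adjusted p 0.148), and 0.99 with genotype as a block (adjusted p 0.0299). In both regions the knock down was the lowest of the ES arrays. Without the Gadd45a knock down array 4 regions were called higher in ES cells (Foxa3, Foxi2, Foxl1 2 and Foxo6 1) and 1 lower.

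The remaining regions with groups that do not overlap had smaller differences. Foxc2, which acts in lymphatic valves and mesenchyme, averaged −0.71 ± 0.45 in ES cells and 0.14 ± 0.28 in the tissues, a difference of −0.85 (SE 0.26, limma adjusted p 0.204). Foxf1a 2, in a gene of lung and gut mesenchyme, averaged −0.87 ± 0.13 in ES cells and −0.30 ± 0.05 in the tissues (SD, n = 4 each), a difference of −0.57 (SE 0.17, limma adjusted p 0.195). Foxa1 1 differed by 0.32 (SE 0.19). Shifts were simulated with noise independent between arrays and of the spread of this fit. Of 200 regions shifted by 1, 2 and 3 log2 the fit over 8 arrays called 0%, 78.5% and 95%.

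**Figure D4:**
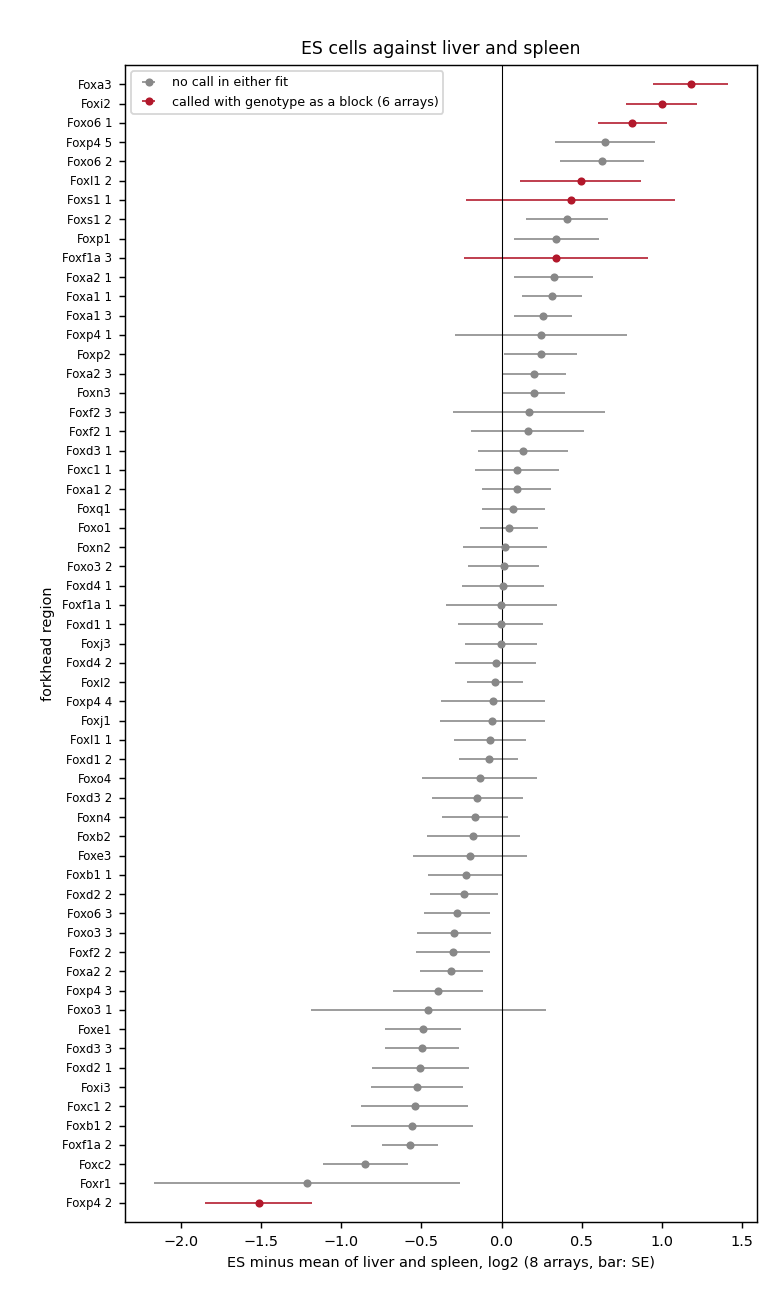
ES minus the mean of liver and spleen in log2 (x axis, bar SE from limma over 8 arrays) for the forkhead regions reported here (y axis), with regions that passed in the fit with genotype as a block in red. Foxp4 2 at −1.51 lies lowest and Foxa3 at 1.18 and Foxi2 at 1.00 lie highest, while Foxr1 and Foxo3 1 have the widest bars.

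The ES lines were set against wild-type ES cells array by array. There is no replicate and hence no test: a region is listed when the means differ by at least 1 log2 and at least 75% of its probes differ in that direction. In ES aid-/- cells 4 forkhead regions were higher and 2 lower, 9.68% beside 10.5% of all regions (6.81% higher and 3.69% lower). The higher ones were Foxr1 by 2.83, Foxo3 1 by 2.01, Foxc1 2 by 1.12 and Foxp4 3 by 1.08. At Foxp4 3 only 1 of 3 bound probes was above background in ES aid-/- cells, and its mean was 0.22 against −0.86 in wild-type ES cells. The lower ones were Foxb2 (−1.47 in ES aid-/- and −0.27 in wild-type cells) and Foxe3, a lens factor (−1.16 in ES aid-/- and −0.08 in wild-type cells), where 5 of 16 and 7 of 10 bound probes were above background in ES aid-/- cells. The median aid-/- minus wild-type difference was −0.12 over forkhead regions and −0.05 over all. The ES aid-/- array had a plateau of 4.34 against 3.37 in wild-type ES cells. Its probes under 40% GC had a median of −0.05 against −1.14. Its share of probes with a bound signal well above background was 70.6%, the lowest of all arrays. The part of any of these in the aid-/- minus wild-type differences was not tested.

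In ES mbd4-/- cells 3 forkhead regions were higher and none lower, 4.84% beside 10.4% of all regions (7.99% higher and 2.42% lower). They were Foxr1 by 2.81, Foxo3 1 by 2.54 and Foxf1a 3 by 1.33. Foxr1 and Foxo3 1 are thus listed in both knockouts, which share the wild-type array they were compared with. Foxf1a 3 was at 1.28 in ES aid-/- and 1.66 in ES mbd4-/- cells, against 0.32 in wild-type ES cells, so that the aid-/- array fell just short of the fold rule there. The median mbd4-/- minus wild-type difference was −0.06 over forkhead regions and 0.08 over all. The ES mbd4-/- array had a plateau of 4.31 against 3.37 in wild-type ES cells. Its probes under 40% GC had a median of −0.86 against −1.14, and the part of either was not tested.

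In the Gadd45a knock down 2 forkhead regions were higher and 6 lower, 12.9% beside 13.5% of all regions. Among the lower ones the knock down minus wild-type difference was −2.53 at Foxs1 1, −2.11 at Foxf2 3, −1.62 at Foxf1a 3, −1.54 at Foxl1 2, −1.37 at Foxr1 and −1.17 at Foxp4 1. Foxf2, Foxf1a and Foxl1 are genes of mesenchyme next to gut and palate epithelium. Foxf2 3 was at −1.76 in the knock down against 0.35 in wild-type ES cells, and Foxf1a 3 at −1.30 against 0.32, with 3 of 6 bound probes above background in the knock down at both. Foxl1 2 was at −0.43 against 1.11 and had all 10 bound probes above background. Of all regions 5.87% were lower and 7.65% higher, while the forkhead regions gave 9.68% lower and 3.23% higher. The knock down also has a plateau of 2.80 against 3.37 in wild-type ES cells, and its probes under 40% GC had a median of −1.40 against −1.14; the part of either in these values was not tested. The higher regions were Foxo6 2 by 1.09 and Foxp1 by 1.01, and Foxp1 was at 0.90 in the knock down against −0.11 in wild-type ES cells. Foxf2 1 had the highest difference of the 62 regions, 1.27, so that regions of Foxf2 went both ways. Its probe median was 0.97 in the knock down against 0.01 in wild-type ES cells. Foxf2 1 is not listed, because less than 75% of its probes differed in that direction.

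**Figure D5:**
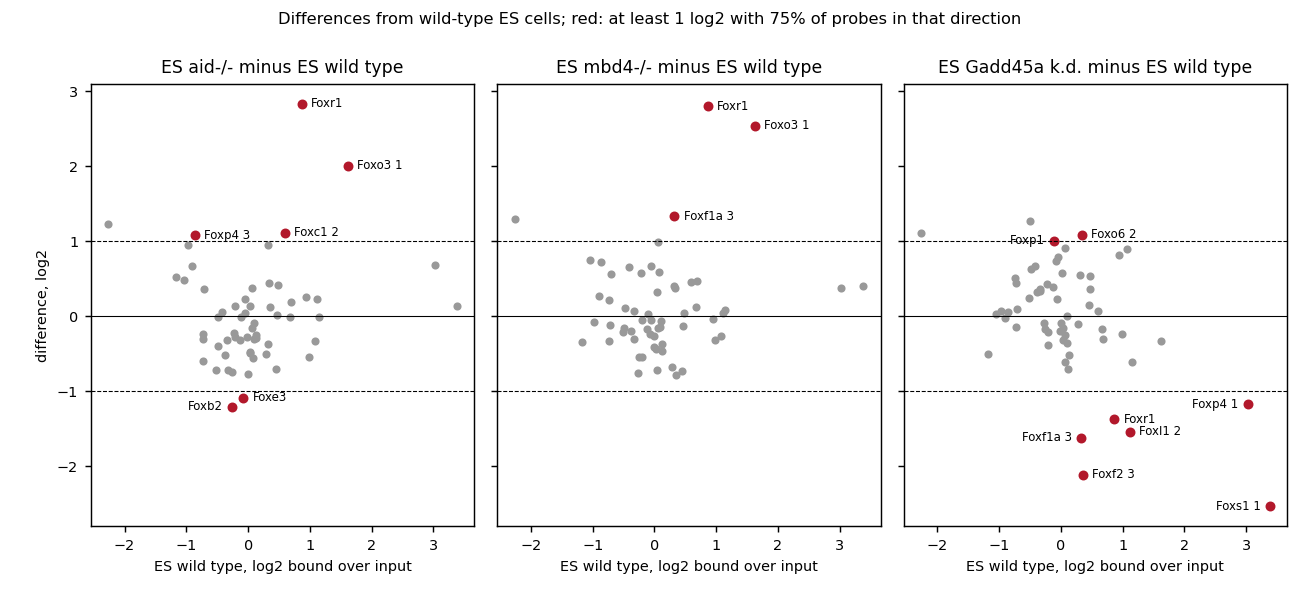
Difference from wild-type ES cells in log2 (y axis) against the wild-type value (x axis, log2 bound over input) for the forkhead regions reported here in ES aid-/-, mbd4-/- and Gadd45a knock down cells, with regions that meet the fold rule in red and dashed lines at 1 and −1. Foxr1 and Foxo3 1 lie at the top of both knockout panels, at 2.83 and 2.01 and at 2.81 and 2.54, and Foxs1 1 lies lowest in the knock down panel at −2.53.

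The aid-/- and mbd4-/- arrays were compared over ES cells, liver and spleen with tissue as a block. No forkhead region passed an adjusted p of 0.05 and none of the 13183 regions did (0%). At an unadjusted limma p under 0.05, 6 forkhead regions were counted, 3 in each direction (9.68%), beside 12.7% of all regions (2.89% higher and 9.85% lower). The largest was Foxo3 1, with an aid-/- minus mbd4-/- difference of −1.27 (SE 0.28, adjusted p 0.386). Of 200 simulated regions shifted by 1, 2 and 3 log2 this fit called 0%, 0% and 73.5%. The simulated noise had the spread of the tissue fit over 8 arrays, which includes genotype differences. These rates hold for that spread only. In liver and spleen alone 7 forkhead regions passed, beside 8.49% of all regions (0.432% higher and 8.06% lower). Foxo3 1, Foxp4 1, Foxr1, Foxp4 2 and Foxs1 1 were lower in aid-/- tissues, with aid-/- minus mbd4-/- differences of −1.64, −1.57, −1.46, −1.14 and −1.05, and Foxf1a 1 and Foxd3 2 were higher, with 1.07 and 0.77. At Foxf1a 1 only 1 of 3 bound probes was above background on each tissue array. All 5 lower ones are high regions, and the plateaus were 2.23 and 2.24 in aid-/- liver and spleen against 4.02 and 3.66 in mbd4-/- liver and spleen. With the arrays scaled to 1 plateau none of the 62 forkhead regions and none of all regions (0%) passed, and the differences of the 5 were 0.03, −0.14, 0.25, −0.07 and 0.30 in that order. Foxf1a 1 and Foxd3 2 then had differences of 0.83 and 0.59 (limma adjusted p 0.256 and 0.305). At an unadjusted p under 0.05, 7 forkhead regions were then higher and 2 lower in aid-/- tissues, beside 14.5% of all regions (4.85% higher and 9.66% lower). Genotype and scan day cannot be told apart here, because all aid-/- arrays were scanned on 1 day and no mbd4-/- array was scanned on that day.

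Array by array, 6 forkhead regions were lower and none higher in aid-/- than in mbd4-/- liver by the fold rule, beside 8.89% of all regions (8.02% lower and 0.872% higher), and 5 were lower and 2 higher in aid-/- than in mbd4-/- spleen, beside 8.34% (8.15% lower and 0.182% higher). The 5 in spleen were Foxo4, Foxo3 1, Foxr1, Foxp4 1 and Foxp4 2. The 2 higher ones were Foxf1a 1 and Foxb1 2, with 1 of 3 and 2 of 3 bound probes above background on both spleen arrays. Whether the genotype difference differed between ES cells and tissues was tested with limma as an interaction, the genotype difference in ES cells minus that in the tissues. No forkhead region passed and none of all regions did (0%), while 13 forkhead regions (21.0%) had an unadjusted limma p under 0.05, beside 15.7% of all regions (8.91% higher and 6.78% lower). Foxp4 1 had the lowest, with an interaction of 1.88 (limma adjusted p 0.0962), which was 0.36 with the arrays at 1 plateau.

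Between liver and spleen, with 2 arrays each, no forkhead region and none of the 13183 regions passed an adjusted limma p of 0.05 (0%). At an unadjusted p under 0.05, 1 forkhead region (1.61%) was counted, beside 1.43% of all regions (0.781% higher and 0.645% lower in liver). Of the FoxA genes, which act in liver, Foxa3 was at 0.08 (aid-/-) and −0.01 (mbd4-/-) in liver against −0.04 (aid-/-) and 0.07 (mbd4-/-) in spleen, and its difference was 0.02 with SE 0.33.

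The genes around the forkhead factors were taken in 6 lists. Of the 33 regions of the insulin, PI3K and AKT genes upstream of FoxO, none passed the test of ES cells against liver and spleen, and their median difference was 0.02. The largest was a region of Irs2, an adaptor of the insulin receptor, which was at 4.54, 4.58, 4.08 and 3.33 in ES aid-/-, mbd4-/-, knock down and wild-type cells and at 0.82 (aid-/-) and 1.54 (mbd4-/-) in liver and 1.93 (aid-/-) and 2.93 (mbd4-/-) in spleen, a difference of 2.32 (SE 0.36, limma adjusted p 0.0514). That Irs2 region has 4 probes, and the other Irs2 region, of 21 probes, differed by −0.19 (SE 0.24). Of the 19 regions of FoxO targets none passed, with a median difference of −0.03. Of all regions 0.137% were lower and 0.0834% higher in ES cells by this test. Foxh1 is the DNA-binding partner of the Smads in the Nodal pathway. Of the 17 regions of this pathway 1 was lower in ES cells and none higher. It was Nodal itself, at −1.27, −1.11, −0.73 and −0.93 in ES aid-/-, mbd4-/-, knock down and wild-type cells and at 1.13 (aid-/-) and 1.66 (mbd4-/-) in liver and 0.44 (aid-/-) and −0.09 (mbd4-/-) in spleen, a difference of −1.79 (SE 0.23, limma adjusted p 0.0297). That Nodal region has 4 probes. None passed among the 19 regions of liver factors that act with FoxA, the 10 of Foxm1 targets and the 12 of cilia genes under Foxj1.

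By the fold rule, of the 33 regions of the insulin and AKT list 1 was higher and 3 lower in ES aid-/-, 1 higher and none lower in ES mbd4-/-, and 2 higher and 4 lower in the knock down than in wild-type cells. Of all regions 6.81% were higher and 3.69% lower in ES aid-/-, 7.99% and 2.42% in ES mbd4-/-, and 7.65% and 5.87% in the knock down. Of the 19 regions of FoxO targets 2 were higher and 2 lower in ES aid-/-, 1 and 1 in ES mbd4-/-, and 2 and 1 in the knock down. Ccng2 was lower in both knockouts, with differences of −1.08 (ES aid-/-) and −1.34 (ES mbd4-/-). Cdkn1a, a cell cycle inhibitor under FoxO control, had 2 regions. Against wild type, the one of 3 probes differed by 1.36 (ES aid-/-), 1.40 (ES mbd4-/-) and −2.73 (knock down), and the one of 17 probes by 0.25, 0.26 and 0.45 in the same lines, with no call. All these differences share the wild-type array.

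Against other families of developmental transcription factors, the share of regions that were high on no array was 83.9% in forkhead genes, 75% of 28 T-box regions, 90.5% of 21 paired box regions and 75.9% of 29 Sox regions. CpG per 100 probe bases had medians of 5.44 in forkhead, 4.70 in T-box, 4.99 in paired box and 4.84 in Sox regions. The median ES minus tissue difference was −0.02, 0.06, 0.02 and −0.26 in forkhead, T-box, paired box and Sox regions. No test was made of these differences between families.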

How the data were processed

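Bound (Cy5) and input (Cy3) DNA of each sample were hybridised to 1 array, per the labels. The processed intensities of both channels were deposited as Agilent Feature Extraction wrote them, background-subtracted and linearly dye-normalized, as the file headers state (version 10.7.3.1 for ES mbd4-/- and the Gadd45a knock down, 10.9.1.1 for the other 6 arrays, build mm9). The deposited log10 ratio column of bound over input, per the file headers, was used only to check direction. The authors' deposited value table was read as a score, since its scale and centring are not stated: its columns had medians of −0.21 to −0.03 and correlated with the scanner log ratios at 0.898 to 0.972, and for an alternative its values were scaled by 1.28, the mean SD of those ratios.

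Log2 ratios were centred on the median of the probes with a position. Of 94687 spots 5950 controls were left out, then 326 probes without a position, 132 outliers and 7309 with dim input, which left 81105. Regions join starts up to 500 bp apart and need 3 probes. Fits used limma 3.58.1 in R 4.3.3 with Benjamini-Hochberg adjustment over 13183 regions, and were tested on simulated data. Arrays of different genotype stand in as replicates, so p-values measure only the spread between these arrays, which may be technical, and the number of arrays limits the precision. Every forkhead region that was called, or was among the extremes of its role class, was named, and other genes only from the pathway lists; 1 forkhead gene is counted but not reported here. The forkhead genes, lists and tests were chosen with earlier results of these data known. Alternatives covered background correction (normexp on median signals, offset 50), the dim filter, centring, scaling to 1 plateau, probe GC, region joining, the deposited table, scan day, slide, software version and single arrays left out. Names come from the scanner files, and promoter sequence from RefSeq (GRCm38.p6). No per-sample column of another series was found (0 columns not used).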

Additional observations from a re-analysis of the deposited data

Results flagged for a closer look

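Among the 4 ES arrays, 6 of the 62 forkhead regions had 1 array far from the other 3 by Dixon's criterion, beside 5.24% of all 13183 regions, and chance alone meets it in about 1 group of 20. The Gadd45a knock down stood apart in 4 of them. It was low at Foxs1 1, at 0.85 with the other ES arrays between 3.38 and 3.79, at Foxl1 2, at −0.43 with the others between 1.11 and 1.34, and at Foxo6 1, at 0.54 with the others between 1.13 and 1.24. It was above the other ES arrays at Foxp1, at 0.90 with the others between −0.11 and −0.08. ES aid-/- cells were above the other ES arrays at Foxd2 1, at −0.02 with the others between −1.04 and −0.91. Only 2 of its 7 bound probes were above background in ES aid-/- cells. Wild-type ES cells were low at Foxb1 2, at −2.26 with the others between −1.15 and −0.96, but at most 1 of its 3 bound probes was above background on each ES array, so that these values lie near the floor. Each of these lines is 1 array, and whether line or array made the difference was not tested.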

How the results depend on the processing

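Counts are forkhead regions called higher and lower. For ES cells against liver and spleen (0 and 0) they were 6 and 2 with genotype as a block on 6 arrays and 1 and 2 at 1 plateau, and 3 were lower with the deposited table. Exactly 1 was lower with the probe GC trend removed, on the low mode, on the median of the probes used, and with scan day or slide as a random block. Leaving out single arrays gave 0 to 4 higher and 0 to 1 lower. With the low mode as centre the median difference was shifted, over all regions, to −0.20, and of forkhead regions to −0.16. For aid-/- against mbd4-/- (0 and 0) they were 2 and 5 in liver and spleen alone and with software version as a term, and 0 to 2 and 0 to 5 when single arrays were left out. Liver against spleen stayed at 0 and 0 with each array left out. For ES aid-/- against wild type (4 and 2) they were 8 and 0 on the low mode, 2 and 0 with normexp, 8 and 1 without the dim filter, 1 and 4 with the deposited table and 2 and 0 at 1.5 log2. There 4 were lower by probe medians, 5 with 250 bp joining, 0 at 1 plateau, and 1 with the GC trend removed or on the median of used probes. For ES mbd4-/- against wild type (3 and 0) 5 were higher without the dim filter, 5 and 2 with 250 bp joining, and 1 was lower with the deposited table or probe medians. For the Gadd45a knock down against wild type (2 and 6) 8 were higher on the low mode, 5 with 250 bp joining, 1 without the dim filter, with the deposited table, by probe medians or on the median of used probes, and 0 at 1.5 log2, with 1 and 3 under normexp. The aid-/- minus mbd4-/- difference changed sign at 1 plateau, to 0.12 at Foxs1 1 and 0.16 at Foxr1, and in liver and spleen alone at 1 plateau to 0.30 at Foxs1 1, 0.25 at Foxr1 and 0.028 at Foxo3 1. Fewer or other arrays, or the scaling, make these alternatives, and beyond that the cause was not tested. Slide as a random block could not be fitted for aid-/- against mbd4-/-. With 1 array per group, differences between ES lines have no replicate check.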
